A study of Mus musculus with 15 samples.

Results

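The corpus callosum is the bundle of myelinated axons that joins the cerebral hemispheres, and both models studied here injure it on 1 side only. Lysophosphatidylcholine (LPC) is a detergent-like lipid that strips myelin at the injection site and is followed by remyelination. L-NIO is an inhibitor of nitric oxide synthase that constricts vessels and is used to produce a focal white matter stroke. The tissue compared here is the callosum on the side that received neither agent: 3 libraries from LPC animals (LPC-Contra1 to LPC-Contra3) and 3 from L-NIO animals (LNIO-Contra1 to LNIO-Contra3), 6 of the 15 bulk RNA-seq libraries of the series. All 6 came from mice with an injury on the opposite side and were collected at day 4. The other 9 libraries, 3 per group, come from the LPC site, the L-NIO site and, in sham-operated mice, the site given saline. The labels give no separate day for the sham tissue, no age, sex or strain, no injected dose and no statement on pooling. All genes of the count table that passed a filter on low counts were members, 16795 of 33321.

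The uninjected side is often taken as an internal control, so the comparison asks whether these controls differ between the models. Vessels of the callosum are lined by endothelial cells, which use blood-brain barrier transporters and VEGF receptors. Oligodendrocytes, astrocytes, microglia and axons with their distant neurons make up the rest. In bulk tissue, fewer cells of a type and less RNA per cell cannot be told apart. Whether each library of a group is a separate mouse is not in the labels. A p-value here therefore measures only how far these samples spread, and that spread may be technical.

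Total counts of the 6 contralateral libraries ran from 15983318 to 20915736, within the range of 14896445 to 20916606 over all 15. Levels are given as CPM, counts scaled to library size. Mbp, a myelin gene, lay between 6952 and 7870 CPM in the 6 libraries. With no other tissue beside it, this value cannot check the callosal label. LPC-Contra2 and LNIO-Contra1 stood apart from the other contralateral libraries. On the first principal component of the 6 libraries (35.8% of the variance) LPC-Contra2 lay at 55.6 and the others between -29.7 and 16.8, and across genes its deviation from the mean of the other libraries had a rank correlation of -0.489 with gene length (read from counts over FPKM), against -0.243 to 0.273 in the other 14. On the second component (23.0%) LNIO-Contra1 lay at 48.6 and the others between -22.3 and 0.713. LNIO-Contra1 had the highest mitochondrial share of the 6 (13.7%, range 8.74 to 13.7%), and it held liver transcripts. The 21 liver-specific genes examined summed to 192 CPM there, against 1.75 to 2.87 CPM in the other 5. The closest pair of contralateral libraries crossed the groups (LPC-Contra1 and LNIO-Contra2, r = 0.985 across genes), and the most distant pair within a group was LPC-Contra2 and LPC-Contra3 (r = 0.964). Several list medians below changed size or sign with 1 library left out. Such values are given beside some of them, and a median printed without them was not necessarily stable.

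No gene passed the test of a difference between the contralateral sides of the models. With edgeR's quasi-likelihood test and Benjamini-Hochberg adjustment, 0 of 16795 genes (0%) had an adjusted p under 0.05, and the smallest adjusted p was 0.0658. At an unadjusted p under 0.05 there were 576 genes (3.43%), of which 264 (1.57%) were higher and 312 (1.86%) lower in LNIO-Contra. By other tools, DESeq2's Wald test called 8 genes, limma voom 1 and limma on FPKM 1. The groups did not overlap at 1435 genes (8.54%), 651 higher (3.88%) and 784 lower (4.67%) in LNIO-Contra. The median log2 difference was -0.012, and 8840 genes (52.6%) had an estimate below 0. The precision can be read from the intervals: the median standard error was 0.198 on the log2 scale, and for 12741 genes (75.9%) the 95% interval lay within a 2-fold difference in either direction. An estimate beyond 2-fold was found at 340 genes (2.02%), 93 of them above 1 on the log2 CPM scale. Leaving out LPC-Contra2 raised the count at an unadjusted p under 0.05 to 1470 and called 2 genes, Gm8885 and Flt1. Leaving out both LPC-Contra2 and LNIO-Contra1, a choice made after seeing the data, gave 1377 at that threshold and called 0.

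**Figure D1:**
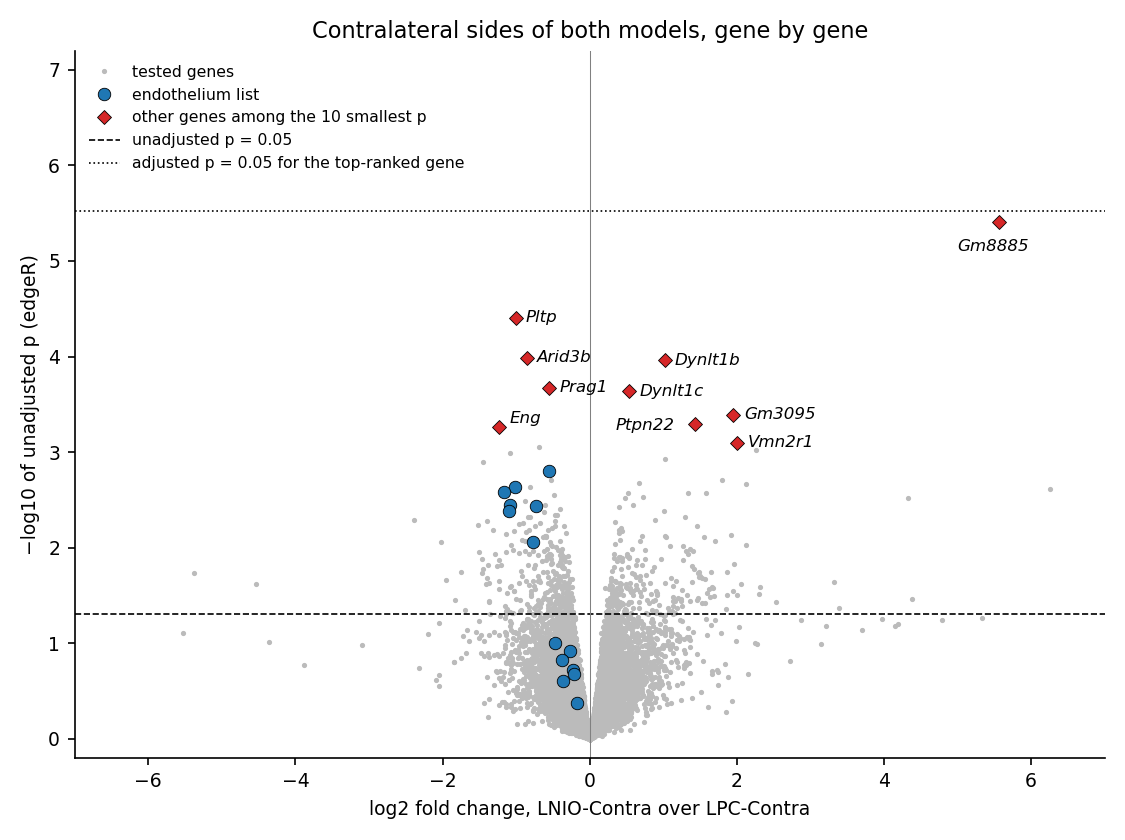
Log2 fold change of LNIO-Contra over LPC-Contra (x axis, negative is lower in LNIO-Contra) against -log10 of the unadjusted edgeR p (y axis) for the 16795 tested genes, with the 10 smallest p as red diamonds and the 14 members of the endothelium list as blue circles. No point lies above the dotted line that the top-ranked gene would need, all 14 endothelial genes lie left of 0, and 3 genes lie beyond the x axis.

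The gene with the smallest p was Gm8885, a predicted gene annotated as a pseudogene, whose transcript is a near copy of the coding sequence of Rpl15, a protein of the large ribosomal subunit. Its sequence matters because reads from near-identical copies can be assigned to either gene. The stretch with most differences is printed below, with capitals at bases that differ from, or are missing in, the other gene. Both come from GENCODE M21 transcripts (Gm8885-201, bases 76 to 212, and the Rpl15-201 open reading frame, bases 77 to 226).
Gm8885: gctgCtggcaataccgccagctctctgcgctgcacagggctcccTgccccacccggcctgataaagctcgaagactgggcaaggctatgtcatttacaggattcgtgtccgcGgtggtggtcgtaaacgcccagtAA
Rpl15: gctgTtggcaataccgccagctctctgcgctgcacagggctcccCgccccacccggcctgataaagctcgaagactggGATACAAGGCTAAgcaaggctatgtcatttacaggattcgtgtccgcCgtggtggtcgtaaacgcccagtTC
Over 610 aligned columns 583 were identical (95.6%), 14 were mismatches and 13 were gaps in Gm8885, and the 13 gaps are the capital run in the Rpl15 line. The genes lie on different chromosomes.

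Gm8885 stood at 0, 0.175 and 0 CPM in the LPC-Contra libraries and at 4.66, 1.99 and 2.56 CPM in the LNIO-Contra libraries. The same division held on the injected sides, with 0.121, 0.0472 and 0.181 CPM at the LPC site and 4.51, 3.5 and 2.13 CPM at the L-NIO site. Sham libraries stood at 0, 0.135 and 0.101 CPM. All 6 libraries of L-NIO animals were thus above all 9 others. The contralateral counts were 165 against 3, a ratio of 51.8 with a 95% interval of 17.4 to 254 that covers counting error only. The fitted log2 difference was 5.56 ± 0.78 (SE; edgeR adjusted p = 0.0658), and without LPC-Contra2 it was 8.78 with an adjusted p of 0.0386; at counts this near 0 the fitted size depends on the prior count. Rpl15 itself, chosen after its values were seen, stood at 148, 235 and 148 CPM in LPC-Contra and at 178, 162 and 190 CPM in LNIO-Contra, so the highest of the 6 was LPC-Contra2 and the groups overlapped.

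Dynlt1b and Dynlt1c were also among the 10 smallest p. They belong to a mouse cluster of near-identical copies of Dynlt1, a light chain of the dynein motor that carries cargo along microtubules, and the GENCODE M21 open reading frames of 342 bases show how little separates them. The first 100 bases are printed, with the only base that differs in capitals.
Dynlt1b: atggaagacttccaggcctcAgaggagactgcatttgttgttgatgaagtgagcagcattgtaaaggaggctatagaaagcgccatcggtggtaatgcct
Dynlt1c: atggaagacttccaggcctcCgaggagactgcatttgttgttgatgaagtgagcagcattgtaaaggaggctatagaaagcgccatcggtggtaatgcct
Over the 342 bases Dynlt1a, Dynlt1c and Dynlt1f were identical, and Dynlt1b differed from each of them at 1 base (99.7% identity). The 4 genes lie on 1 chromosome with 4, 6 and 1 annotated genes between neighbours in the order a, b, c, f. The sources used here do not give how the deposited counting shared reads among them, which makes the split among copies uncertain.

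Dynlt1b stood at 11.6, 14.2 and 17.5 CPM in LPC-Contra and at 25, 28.4 and 34.1 CPM in LNIO-Contra, a log2 difference of 1.02 ± 0.19 (SE; edgeR adjusted p = 0.462). Dynlt1c stood at 23.1, 24.7 and 24.4 CPM in LPC-Contra and at 33.7, 35.1 and 35.4 CPM in LNIO-Contra, a log2 difference of 0.53 ± 0.11 (adjusted p = 0.649). Neither gene's groups overlapped. Dynlt1a and Dynlt1f, chosen after their values were seen, had log2 differences of 0.55 (unadjusted p = 0.0235) and 0.73 (unadjusted p = 0.00292). On the injected sides the L-NIO minus LPC difference was 0.83 at Dynlt1b and 0.55 at Dynlt1c. Sham levels, at 22.7 to 26.4 CPM for Dynlt1b, lay between the groups or beside LNIO-Contra.

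**Figure D2:**
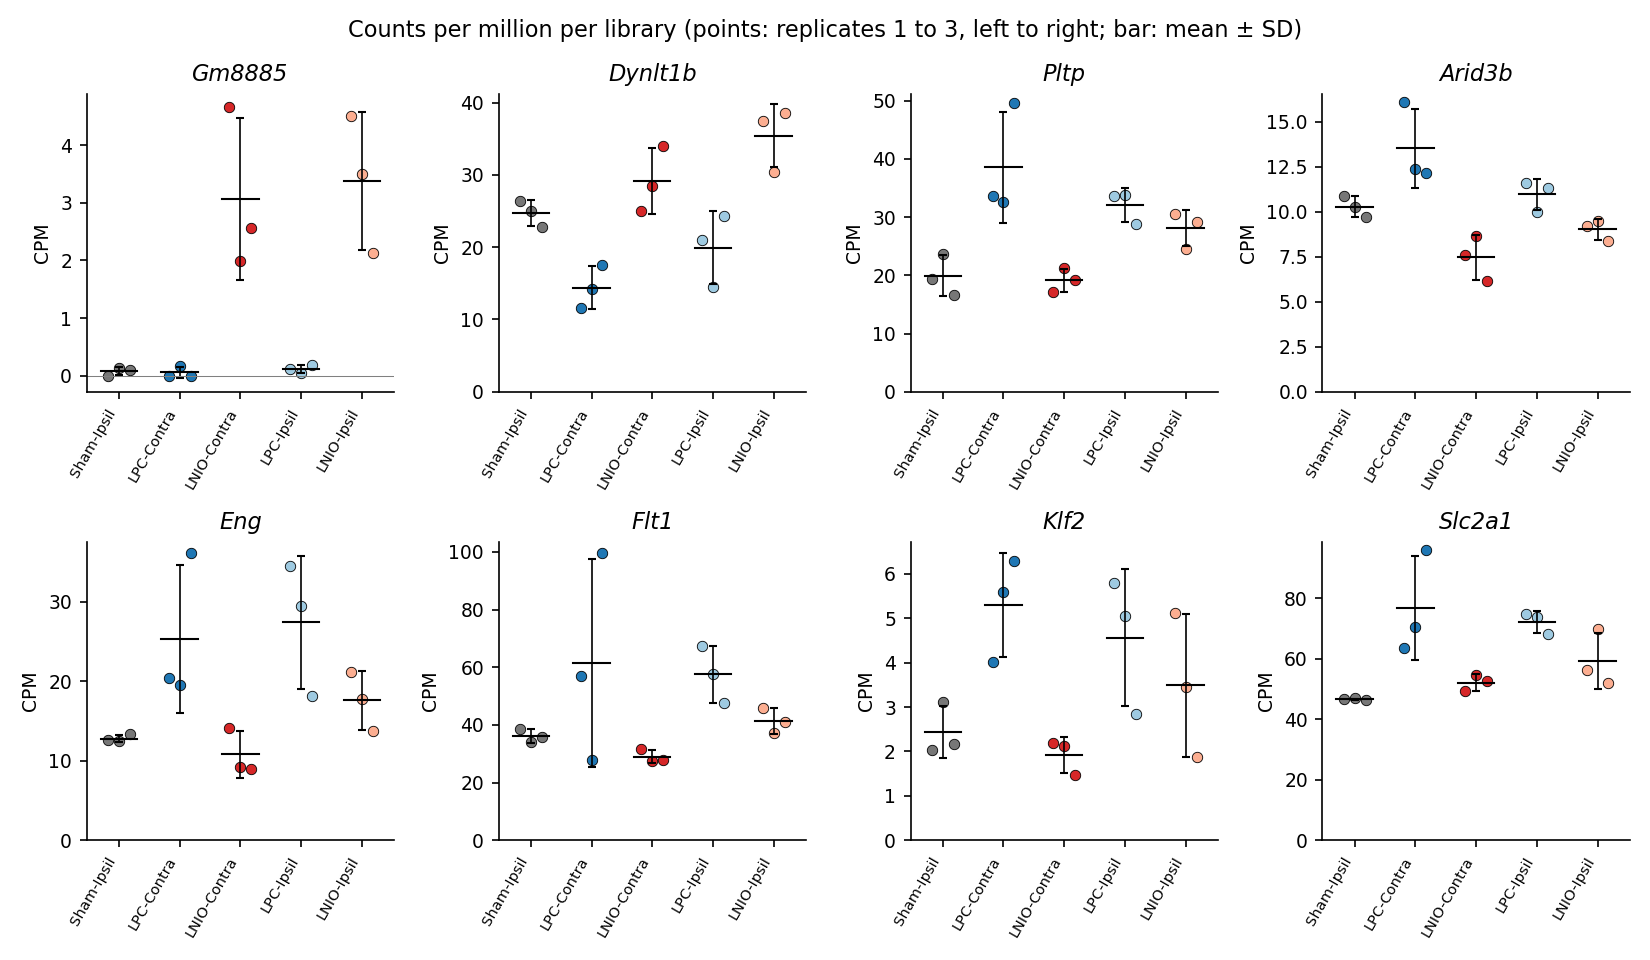
CPM (y axis) of 8 genes in each library of the 5 groups (x axis), with replicates 1 to 3 from left to right and a bar for the mean ± SD of 3 libraries. Gm8885 is near 0 in all groups but the L-NIO ones, and Flt1 and Slc2a1 are highest in LPC-Contra3.

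Of the other genes among the 10 smallest p, Pltp encodes phospholipid transfer protein, which moves phospholipids and sterols between lipoprotein particles. It stood at 33.6, 32.6 and 49.6 CPM in LPC-Contra and at 17.2, 21.2 and 19.1 CPM in LNIO-Contra, a log2 difference of -1.01 ± 0.17 (SE; edgeR adjusted p = 0.332). The 3 sham libraries lay between 16.6 and 23.7 CPM, beside LNIO-Contra, and the injected sides of the models differed by only -0.19. Eng encodes endoglin, a TGF-beta co-receptor of endothelial cells. It stood at 20.3, 19.6 and 36.1 CPM in LPC-Contra and at 14.2, 9.22 and 9.02 CPM in LNIO-Contra (log2 difference -1.23 ± 0.28, adjusted p = 1). LPC-Contra3 was the highest library at both genes, and without it the differences were -0.77 at Pltp and -0.87 at Eng. Arid3b, an AT-rich DNA-binding protein, stood at 16.1, 12.4 and 12.1 CPM in LPC-Contra and at 7.6, 8.65 and 6.16 CPM in LNIO-Contra (-0.85 ± 0.16, adjusted p = 0.462). Prag1, a pseudokinase scaffold, stood at 33.3, 28.5 and 34.9 CPM in LPC-Contra and at 22.9, 21.7 and 21.2 CPM in LNIO-Contra (-0.56 ± 0.11, adjusted p = 0.649). Prag1 had a like difference between the injected sides, -0.63.

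The remaining 3 were higher in LNIO-Contra, and Ptpn22 and Vmn2r1 were low in level. Ptpn22, a phosphatase of immune cell signalling, stood at 1.1, 0.992 and 1.69 CPM in LPC-Contra and at 3.11, 3.03 and 4.02 CPM in LNIO-Contra (log2 difference 1.43 ± 0.32, SE; edgeR adjusted p = 1). Vmn2r1, a vomeronasal receptor gene, stood at 0.365, 0.292 and 0.194 CPM in LPC-Contra and at 1.44, 0.757 and 1.34 CPM in LNIO-Contra (2.0 ± 0.48, adjusted p = 1). Gm3095, a predicted gene, stood at 3.6, 2.98 and 5.12 CPM in LPC-Contra and at 22.2, 11.1 and 12 CPM in LNIO-Contra (1.95 ± 0.42, adjusted p = 0.971). Sham libraries were at the LNIO-Contra level for Vmn2r1 (1.16 to 1.26 CPM) and at 9.15 to 26.5 CPM for Gm3095. Gm3173 and Gm5796, predicted genes on the same chromosome as Gm3095 and chosen after their values were seen, had log2 differences of 2.27 and 2.12. Nudt19, a peroxisomal hydrolase also chosen after its values were seen, stood at 17.3, 26.2 and 17.2 CPM in LPC-Contra and at 46.9, 39.2 and 37.1 CPM in LNIO-Contra. The groups did not overlap at any of the 10 genes with the smallest p, but these genes were picked by p in this same comparison. Over all tested genes the groups did not overlap at 8.54%.

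The injected sides of the same models showed the same signs at most of these genes. They are separate libraries but may come from the same mice, so they are not known to be independent samples. Among the 100 genes with the smallest p, 58 were lower and 42 higher in LNIO-Contra, and 96 had the same sign between the L-NIO and LPC injection sites, against 69.6% of all tested genes. At an unadjusted p under 0.05 on the injected sides, 46 had the same sign and 1 the opposite one. The genes were picked by p in the same fit, which uses 1 spread per gene for both comparisons. Genes of small spread are therefore favoured in both. Of all tested genes 8.39% reached that threshold on the injected sides in either direction, and the share with the same sign was not computed. The labels number the libraries 1 to 3 in each group but do not say whether the sides of 1 animal share a number. Across genes, same-numbered L-NIO libraries deviated from their group means together (r = 0.599, 0.356 and 0.249), and the values for same-numbered LPC libraries were r = -0.0357, 0.165 and 0.334. The injected sides themselves gave 0 called genes of 16795 (0%; 1409, 8.39%, at an unadjusted p under 0.05, 496 higher, 2.95%, and 913 lower, 5.44%, at the L-NIO site). Without LPC-Ipsil3 that count was 266. On the first principal component of all 15 libraries LPC-Ipsil3 had a score of -11.3, inside the range of sham and contralateral libraries (-28.0 to 2.56) and outside that of the other injected LPC and L-NIO ones (12.7 to 77.2).

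Endothelial genes were the cell type list with the most members at an unadjusted p under 0.05. All 14 members of the endothelium list had lower values in LNIO-Contra, with a median log2 difference of -0.515 against -0.012 over all tested genes. None was called, and 7 of 14 had an unadjusted p under 0.05 in the lower direction, where 1.86% of all tested genes did. Their groups did not overlap at 6 of 14, against 4.67% of all tested genes in that direction. The same shares of all tested genes, with 52.6% below 0, stand beside the lower-direction counts of the lists that follow. The summed level of the list was 388.1, 370.3 and 549.4 CPM in LPC-Contra, 330, 274.1 and 303.6 CPM in LNIO-Contra, and 303.5 to 316.1 CPM in the sham libraries. Every LPC-Contra sum lay above every LNIO-Contra and sham sum, LPC-Contra3 by most. Without LPC-Contra3 the endothelium median was -0.323 with 7 at an unadjusted p under 0.05, without LPC-Contra2 -0.608 with 8, without LNIO-Contra1 -0.694 with 9, and without both of the libraries that stood apart -0.730 with 8.

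By role, the transporters of the blood-brain barrier came first. Slc2a1, the glucose transporter of barrier endothelium, stood at 63.5, 70.4 and 96.1 CPM in LPC-Contra and at 49.2, 54.7 and 52.5 CPM in LNIO-Contra (log2 difference -0.56 ± 0.14, SE; edgeR adjusted p = 1, unadjusted 0.00159). Abcb1a, the efflux pump P-glycoprotein, stood at 25, 15.3 and 40.4 CPM in LPC-Contra and at 15.8, 12.1 and 12.1 CPM in LNIO-Contra (-1.01 ± 0.27, edgeR unadjusted p = 0.0023). Its LPC-Contra2 value lay among the LNIO-Contra ones, so the groups overlapped. The junction genes had log2 differences of -0.77 ± 0.26 at Cldn5 (edgeR unadjusted p = 0.00884), -1.10 ± 0.32 at Cdh5 (unadjusted p = 0.00412) and -0.74 ± 0.21 at Pecam1 (unadjusted p = 0.00367). Cldn5 stood at 20.1, 28.6 and 25.5 CPM in LPC-Contra and at 18.2, 9.46 and 15.8 CPM in LNIO-Contra. In sham it stood at 11.2, 12.5 and 15.6 CPM, below every LPC-Contra library.

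The VEGF receptors also spread widely within LPC-Contra. Kdr, the main signalling receptor for VEGF-A, stood at 16.6, 10.5 and 27 CPM in LPC-Contra and at 9.73, 6.01 and 8.47 CPM in LNIO-Contra (log2 difference -1.16 ± 0.32, SE; edgeR unadjusted p = 0.00262). Flt1, which also binds VEGF-A, stood at 56.9, 27.8 and 99.7 CPM in LPC-Contra and at 31.6, 27.5 and 27.9 CPM in LNIO-Contra (-1.08 ± 0.31, edgeR unadjusted p = 0.00356). LPC-Contra2 lay with LNIO-Contra at Flt1, and LPC-Contra3 lay far above the rest at both genes. Without LPC-Contra2 the Flt1 difference was -1.43 with an adjusted p of 0.0386, and without LPC-Contra3 it was -0.54 with an unadjusted p of 0.0342. The angiogenesis list, which shares Kdr and Flt1, had 11 of 12 tested members below 0, a median of -0.498 and 5 at an unadjusted p under 0.05: Kdr, Flt1, Vwf, Tie1 and Angpt2. All 5 were lower in LNIO-Contra, where 1.86% of all tested genes had such a p. Of all tested genes 52.6% were below 0. Vwf, the clotting factor stored by endothelium, stood at 8.71, 6.95 and 10.6 CPM in LPC-Contra and at 3.97, 5.39 and 5.06 CPM in LNIO-Contra (-0.86 ± 0.27, edgeR unadjusted p = 0.0068). Klf2, a shear-responsive transcription factor of endothelium chosen after its values were seen, stood at 4.02, 5.6 and 6.29 CPM in LPC-Contra and at 2.19, 2.13 and 1.46 CPM in LNIO-Contra (-1.45 ± 0.37, edgeR unadjusted p = 0.00128).

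Mural cells, which wrap the vessels, had 9 of 9 tested members of the pericytes and smooth muscle list below 0, with a median of -0.349 (-0.205 without LPC-Contra3) and 0 at an unadjusted p under 0.05. Acta2, a smooth muscle actin, stood at 4.85, 5.72 and 10.6 CPM in LPC-Contra and at 4.89, 3.45 and 3.11 CPM in LNIO-Contra, so only LPC-Contra2 and LPC-Contra3 lay above the others. The nitric oxide synthesis list had 8 of 12 tested members below 0 and a median of -0.146 (-0.057 without LPC-Contra1). Nos3, the endothelial synthase, stood at 5.27, 4.67 and 7.07 CPM in LPC-Contra and at 5.24, 2.7 and 3.35 CPM in LNIO-Contra (log2 difference -0.59 ± 0.32, SE; edgeR unadjusted p = 0.0882). Nos1, the neuronal synthase, had a difference of -0.60 (edgeR unadjusted p = 0.0528), and Gch1, which makes the synthases' cofactor, was the only member at an unadjusted p under 0.05 (-1.06, unadjusted p = 0.0489). Of the lysophosphatidylcholine handling list, 9 of 13 tested members were below 0 (median -0.0545) and 1 had an unadjusted p under 0.05. This was Gpr4, a proton-sensing receptor of endothelium, at 3.86, 3.91 and 5.9 CPM in LPC-Contra and at 1.84, 2.18 and 2.44 CPM in LNIO-Contra (-1.08 ± 0.26, edgeR unadjusted p = 0.00102).

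**Figure D3:**
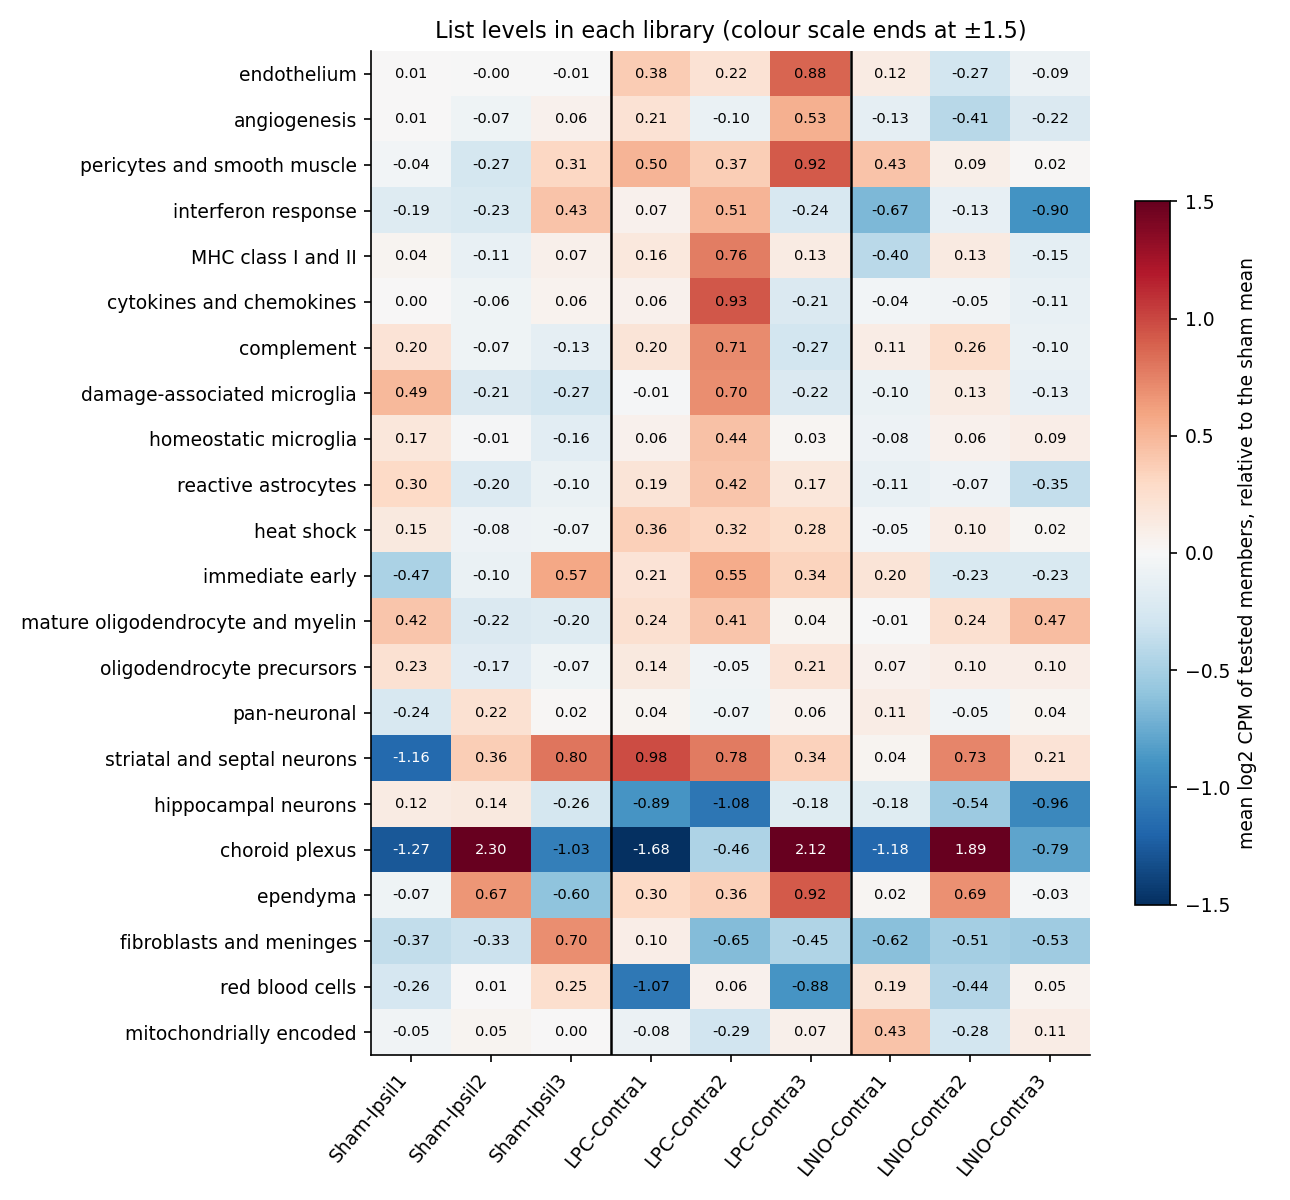
Level of 22 gene lists (rows) in each sham and contralateral library (columns), as the mean log2 CPM of tested members minus the sham mean, with each value printed in its cell. Endothelium is above 0.2 in all 3 LPC-Contra libraries and at or below 0.12 in LNIO-Contra, whereas cytokines and chemokines are high in LPC-Contra2 alone (0.93).

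The immune lists also had lower values in LNIO-Contra. LPC-Contra2 carried much of the difference at several of them, and at interferon response LNIO-Contra1 and LNIO-Contra3 were also low. All 19 members of the interferon response list were below 0 (median -0.704), and 2 had an unadjusted p under 0.05. These were Ifit3, an antiviral effector, and Irf7, a transcription factor of the response. Ifit3 stood at 11.2, 19.6 and 5.06 CPM in LPC-Contra and at 2.71, 6.43 and 3.96 CPM in LNIO-Contra, and Irf7 at 3.6, 6.42 and 2.01 CPM against 1.67, 2.27 and 0.67 CPM. The groups overlapped at both genes, and LPC-Contra2 was the highest library at each gene. Without it all 19 were still below 0, with an interferon response median of -0.393 and 0 members at an unadjusted p under 0.05. That count was also 0 without LNIO-Contra3 (median -0.445), and it was 5 without LNIO-Contra2 (median -1.12). Relative to the sham mean, interferon response levels were 0.069, 0.506 and -0.236 in LPC-Contra and -0.671, -0.129 and -0.898 in LNIO-Contra. Sham libraries lay at -0.194, -0.234 and 0.428, so LNIO-Contra1 and LNIO-Contra3 lay below every sham and LPC-Contra library.

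The MHC class I and II list, which holds the antigen presentation genes, had 13 of 14 members below 0 (median -0.523). The cytokines and chemokines list had 11 of 14 tested members below 0 (median -0.447), and the complement list 9 of 12 (median -0.234). Without LPC-Contra2 these medians were -0.189, 0.174 and 0.013, so the sign turned at 2 of the 3 lists. H2-D1, a class I heavy chain, stood at 50.6, 155 and 88.9 CPM in LPC-Contra and at 17.3, 65.4 and 59 CPM in LNIO-Contra. At an unadjusted p under 0.05 the MHC list had 0 members, complement 0 and cytokines and chemokines 3: Cxcl10, Cxcl12 and Cx3cl1. Cxcl10, an interferon-induced chemokine, stood at 1.57, 1.81 and 0.454 CPM in LPC-Contra and at 0.403, 0.142 and 0.183 CPM in LNIO-Contra (log2 difference -2.39 ± 0.73, SE; edgeR adjusted p = 1, unadjusted 0.00518). Cxcl12, made by endothelium and meninges, stood at 57.8, 40 and 107 CPM in LPC-Contra and at 43.6, 36.3 and 41.2 CPM in LNIO-Contra. The LPC-Contra3 value was the only one far above the rest. C3, the central complement component, stood at 7.49 CPM in LNIO-Contra1, the library with liver transcripts, and at 0.914 to 1.94 CPM in the other 5.

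Microglial genes showed no member at an unadjusted p under 0.05 on either list. The homeostatic microglia list had 8 of 11 members below 0 (median -0.132) and the damage-associated microglia list 17 of 22 (median -0.180), and without LPC-Contra2 the medians were 0.107 and 0.116. P2ry12, the purine receptor of resting microglia, stood at 53.8, 57.6 and 58.5 CPM in LPC-Contra and at 65.1, 58.1 and 61.9 CPM in LNIO-Contra. Trem2, the receptor that drives the damage-associated state, stood at 10.9, 21.8 and 6.35 CPM against 11.5, 12.2 and 11.1 CPM. Its 95% interval ran from -1.70 to 1.36, so a 2-fold difference was not excluded in either direction. Aif1, Apoe and Spp1 had log2 differences of -0.22 ± 0.45, -0.18 ± 0.41 and 0.25 ± 1.0 (SE). The border macrophages list had 5 of 7 tested members below 0 (median -0.113, and 0.186 without LPC-Contra1), and the other leukocytes list had only 4 of 16 members that passed the filter, 3 of them below 0 (median -0.0924).

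The general astrocytes list had 10 of 12 members below 0 (median -0.165, and -0.063 without LPC-Contra3). Sox9, a transcription factor of the lineage, was its member at an unadjusted p under 0.05, at 30.9, 41.8 and 37.1 CPM in LPC-Contra and 29.5, 19.8 and 26.9 CPM in LNIO-Contra (log2 difference -0.53 ± 0.18, SE; edgeR unadjusted p = 0.0121). The reactive astrocytes list had 12 of 14 below 0 (median -0.404, and -0.244 without LPC-Contra2) and 2 at an unadjusted p under 0.05, Cxcl10 and Hspb1. Gfap, the intermediate filament of reactive astrocytes, stood at 484, 796 and 445 CPM in LPC-Contra and at 304, 478 and 461 CPM in LNIO-Contra (-0.47 ± 0.45, edgeR unadjusted p = 0.31). The high value is LPC-Contra2, and without it the difference was -0.16. Lcn2, a secreted marker of the reactive state, had 1, 5 and 1 counts in LPC-Contra and 0 in all 3 LNIO-Contra libraries.

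Heat shock and immediate early genes had lower values in LNIO-Contra as well. The heat shock list had 10 of 12 members below 0 (median -0.234, and -0.121 without LNIO-Contra1) and 5 at an unadjusted p under 0.05: Hspa1a, Hspa1b, Dnajb1, Hspb1 and Bag3. All 5 were lower in LNIO-Contra, where 1.86% of all tested genes had such a p, and 52.6% of all tested genes were below 0. Hspb1, a small chaperone, stood at 4.28, 3.85 and 4.28 CPM in LPC-Contra and at 2.76, 1.8 and 1.95 CPM in LNIO-Contra (log2 difference -0.93 ± 0.35, SE; edgeR unadjusted p = 0.0174). Dnajb1, a co-chaperone, stood at 40.7, 50 and 40.3 CPM against 32.1, 36.7 and 34.4 CPM (-0.34 ± 0.12, edgeR unadjusted p = 0.0129). Neither gene's groups overlapped. This held at 4 of 12 heat shock members, all lower in LNIO-Contra, against 4.67% of all tested genes in that direction. Leaving out LNIO-Contra3 left 1 of the heat shock members at that threshold, and leaving out LNIO-Contra1 or LPC-Contra3 left 2. All 12 members of the immediate early list, transcripts that neurons induce within minutes of firing, were below 0 (median -0.406, and -0.611 without LNIO-Contra1), and Egr1 was the member at an unadjusted p under 0.05. It stood at 331, 336 and 340 CPM in LPC-Contra and at 256, 200 and 226 CPM in LNIO-Contra (-0.56 ± 0.18, edgeR unadjusted p = 0.0066). Fos had a difference of -0.44 ± 0.32, with 19.7, 24.6 and 22.6 CPM against 19.2, 16.1 and 13.9 CPM. Relative to the sham mean, heat shock list levels were 0.278 to 0.362 in LPC-Contra and -0.046 to 0.101 in LNIO-Contra. Single sham libraries lay at -0.082 to 0.148. Immediate early levels were 0.210 to 0.554 in LPC-Contra and -0.234 to 0.197 in LNIO-Contra. Sham libraries spanned both groups there, at -0.470 to 0.575. The time of day of collection is not given in the sources used here. The circadian clock list had 12 of 15 members below 0 (median -0.0988, and -0.031 without LPC-Contra1), with Cry1, a repressor of the clock, at -0.46 (edgeR unadjusted p = 0.0249) and Per2 at -0.33 ± 0.26.

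Of the remaining stress lists, integrated stress response had 8 of 12 members below 0 (median -0.156; Sesn2 at an unadjusted p under 0.05) and oxidative stress 8 of 12 (median -0.0762; Txnrd1). The hypoxia and glycolysis list had 7 of 14 (median -0.0382). Without LPC-Contra2 the medians of integrated stress response, oxidative stress, and hypoxia and glycolysis were 0.026, 0.064 and 0.076, so all 3 turned sign. The hypoxia member in the higher direction at an unadjusted p under 0.05, Bnip3, a mitophagy receptor, stood at 43.8, 45.1 and 44.9 CPM in LPC-Contra and at 57.2, 47.6 and 58.2 CPM in LNIO-Contra (log2 difference 0.28 ± 0.11, SE; edgeR unadjusted p = 0.0207). The glucocorticoid response list had 4 of 12 below 0 (median 0.0883), and 10 of 12 with a median of -0.232 without LNIO-Contra2. Fkbp5, a standard target of the hormone, had a difference of -0.12 ± 0.26.

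**Figure D4:**
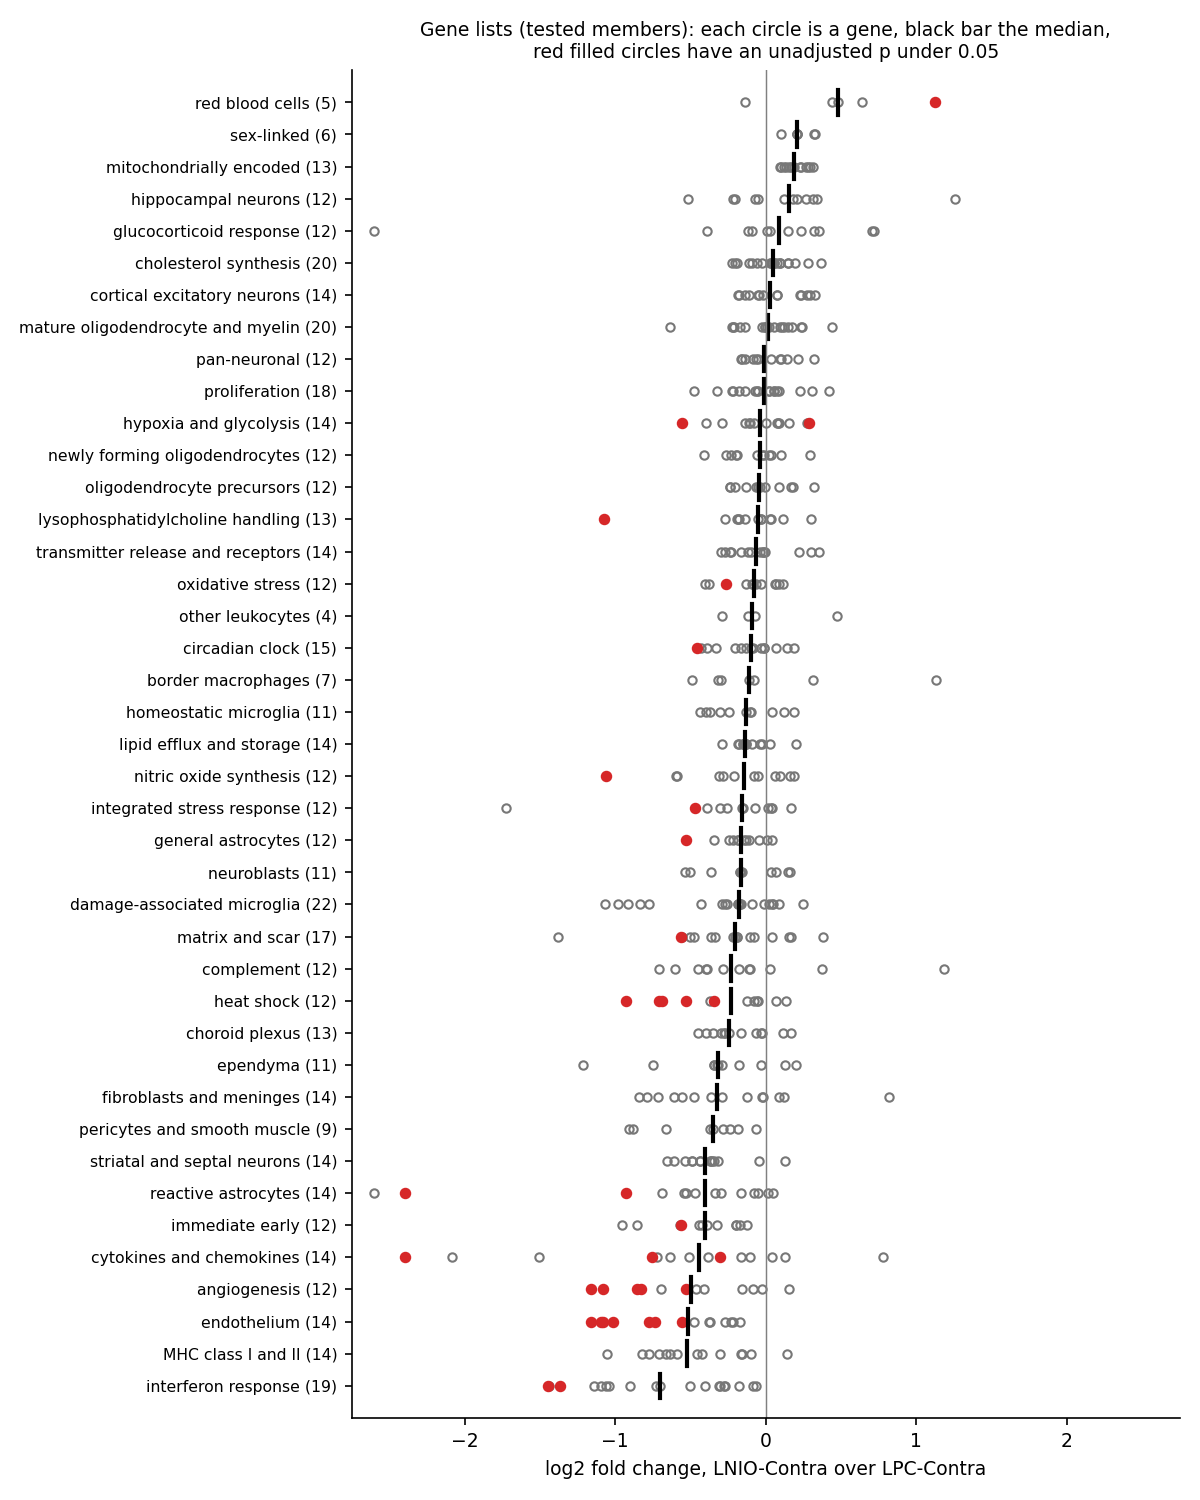
Log2 fold change of LNIO-Contra over LPC-Contra (x axis) of every tested member of the 41 lists (rows, with the number tested), black bars for list medians and red circles for an unadjusted p under 0.05. Medians run from -0.704 for interferon response to 0.482 for red blood cells, and 2 values of 1 gene, Lcn2, are drawn at the left edge because they lie beyond the axis.

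By list medians the oligodendrocyte lineage was close to level, though members of the mature list ran from -0.639 to 0.442. The mature oligodendrocyte and myelin list had 9 of 20 members below 0 (median 0.0134), oligodendrocyte precursors 8 of 12 (median -0.0458) and newly forming oligodendrocytes 8 of 12 (median -0.0417), with 0 members of the 3 lists at an unadjusted p under 0.05. Mbp, myelin basic protein, stood at 7006, 6952 and 7870 CPM in LPC-Contra and at 7424, 7180 and 7555 CPM in LNIO-Contra (log2 difference 0.02 ± 0.18, SE; 95% interval -0.36 to 0.41). Pdgfra, the receptor that marks precursors, stood at 68.8, 49.8 and 68.6 CPM against 53.4, 76 and 69 CPM (0.08 ± 0.14; interval -0.22 to 0.39). For both genes the interval lay within 2-fold. Gpr17, a receptor of committed precursors, had a difference of -0.27 ± 0.24. The cholesterol synthesis list, on which myelin depends, had 7 of 20 members below 0 (median 0.0484; Hmgcs1 0.37 ± 0.33), lipid efflux and storage had 12 of 14 (median -0.137), and proliferation had 9 of 18 (median -0.0135). Without LNIO-Contra3 the cholesterol synthesis median was -0.053, and without LPC-Contra2 that of lipid efflux and storage was -0.035. The mature oligodendrocyte and myelin median was 0.126 without LNIO-Contra1 and -0.043 without LPC-Contra1. Without both LPC-Contra2 and LNIO-Contra1 the mature oligodendrocyte and myelin median was 0.182, with 5 of 20 below 0. That of oligodendrocyte precursors was 0.0084 without LPC-Contra3. That of proliferation was 0.114 without LPC-Contra2 and -0.170 without LPC-Contra3.

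Neuronal lists would reflect axons and any grey matter taken with the callosum, the amount of which was not tested. Pan-neuronal genes had 6 of 12 members below 0 (median -0.00884), cortical excitatory neurons 7 of 14 (median 0.0273), transmitter release and receptors 11 of 14 (median -0.067), hippocampal neurons 5 of 12 (median 0.152) and neuroblasts 7 of 11 (median -0.166), with 0 at an unadjusted p under 0.05. Without LNIO-Contra1 the hippocampal neurons median was -0.137 with 8 of 12 below 0, and without LPC-Contra2 the neuroblasts median was -0.061. The transmitter release and receptors median was 0.043 without LPC-Contra3. That of cortical excitatory neurons was 0.165 without LPC-Contra3 and -0.055 without LPC-Contra2. Snap25, a protein of the synaptic fusion machinery, stood at 1965, 1765 and 1915 CPM in LPC-Contra and at 2188, 1779 and 2257 CPM in LNIO-Contra (log2 difference 0.14 ± 0.14, SE). The striatal and septal neurons list had 13 of 14 below 0 (median -0.404), and its median was -0.688 without LNIO-Contra2, -0.606 without LPC-Contra3 and -0.182 without both LPC-Contra2 and LNIO-Contra1. Their summed level was 3141, 2843 and 1823 CPM in LPC-Contra, 1589, 2593 and 1588 CPM in LNIO-Contra and 503.9 to 2589 CPM in sham, so the sham range overlapped both groups. Adora2a, an adenosine receptor of striatal projection neurons, stood at 159, 167 and 96.9 CPM in LPC-Contra and at 67.7, 123 and 77.2 CPM in LNIO-Contra.

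Ventricle and surface lists varied by library. Choroid plexus genes had 11 of 13 members below 0 (median -0.248), yet Ttr, the plexus' transthyretin, stood at 20.2, 163.9 and 948.3 CPM in LPC-Contra and at 55.5, 1140 and 72.9 CPM in LNIO-Contra (log2 difference 0.17 ± 1.77, SE). One library of each group was high, LPC-Contra3 and LNIO-Contra2, and the choroid plexus median was 1.73 without LPC-Contra3 and -1.87 without LNIO-Contra2. The ependyma list had 9 of 11 below 0 (median -0.318), and its median was -0.042 without LNIO-Contra3 and -0.144 without LNIO-Contra1. The fibroblasts and meninges list had 11 of 14 (median -0.327; Col1a1 -0.36 ± 0.36), and 7 of 14 with a median of -0.0068 without LPC-Contra1. The matrix and scar list had 13 of 17 (median -0.205, and -0.093 without LNIO-Contra3), with Tnc, a matrix glycoprotein, at -0.56 ± 0.22 (edgeR unadjusted p = 0.0201). The part that these tissues played in the endothelial and immune values was not tested.

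Red blood cell genes had higher values in LNIO-Contra in 4 of 5 tested members (median 0.482). Hba-a2, an alpha-globin, stood at 11, 36.9 and 10.2 CPM in LPC-Contra and at 63.3, 18.5 and 45.5 CPM in LNIO-Contra (log2 difference 1.13 ± 0.50, SE; edgeR unadjusted p = 0.0411). The high LPC-Contra library is again LPC-Contra2, and without it the red blood cells list had 4 members at an unadjusted p under 0.05 (median 0.880). LPC-Contra1 and LPC-Contra3 were also below all 3 sham libraries, at 36.6, 40.4 and 53.3 CPM. All 13 mitochondrially encoded genes were above 0 (median 0.186), and without LNIO-Contra1, the library with the largest mitochondrial share, 5 of 13 were below 0 (median 0.017). The sex-linked list had 6 of 6 tested members above 0, all between 0.103 and 0.327 (median 0.208). Its Y-linked members Ddx3y, Eif2s3y, Kdm5d and Uty passed the filter. Xist and Tsix did not, and Xist had 1 to 10 counts in each of the 15 libraries.

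**Figure D5:**
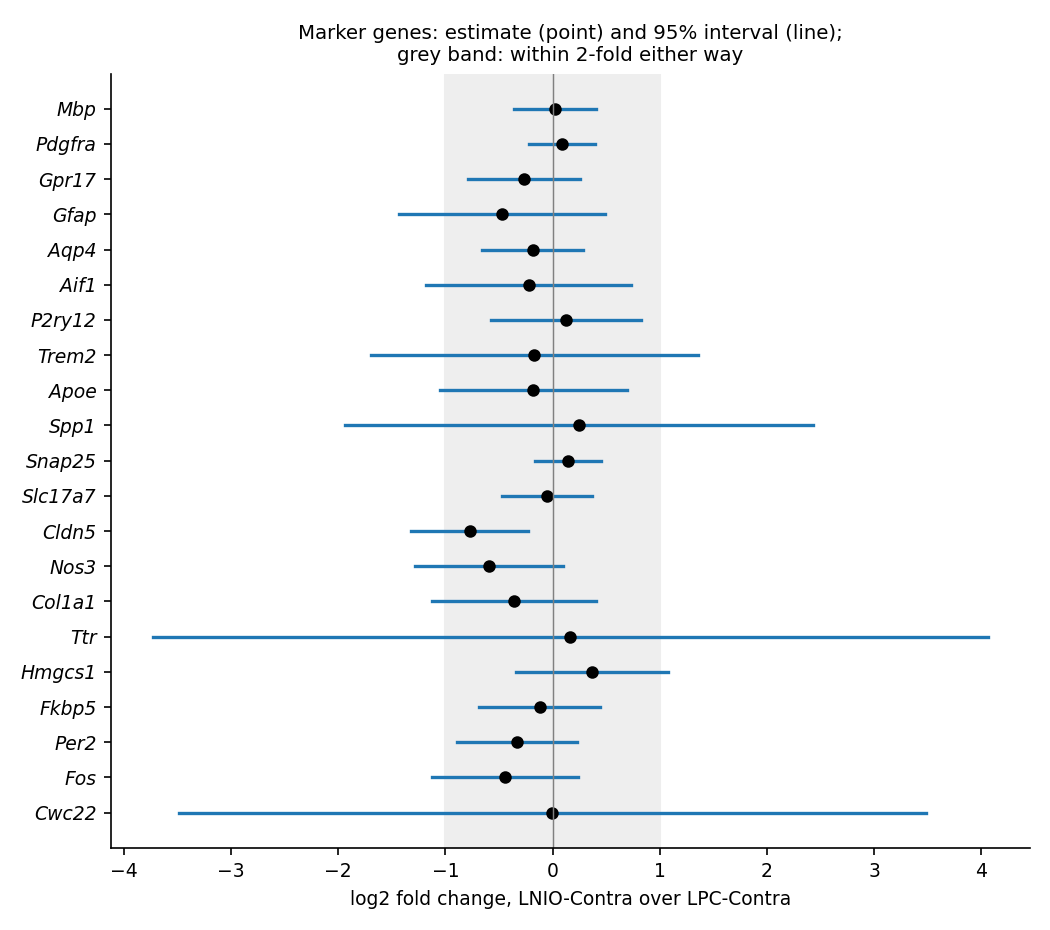
Log2 fold change of LNIO-Contra over LPC-Contra (x axis, points) with 95% intervals (lines) for 21 marker genes (rows), and a grey band for differences within 2-fold. Mbp, Pdgfra and Snap25 have intervals inside the band, Cldn5 is the only one whose interval excludes 0, and Ttr and Cwc22 have the widest.

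The saline site is a further reference, but an injected one: side, needle and model cannot be told apart in comparisons with it. The comparisons with sham share the sham libraries, so they are set side by side only. LNIO-Contra against sham gave 0 called genes of 16795 (0%) and 457 (2.72%) at an unadjusted p under 0.05. LPC-Contra against sham gave 1 (0.00595%) and 1624 (9.67%; 712 higher, 4.24%, and 912 lower, 5.43%). The called gene was Tnfaip8l3, a carrier of phosphoinositide lipids, which stood at 16.7, 16.9 and 12.1 CPM in sham, 4.85, 3.62 and 5.38 CPM in LPC-Contra and 8.46, 6.76 and 5.49 CPM in LNIO-Contra. All 6 contralateral libraries lay below the 3 sham ones. It fell by 1.72 ± 0.22 (SE, log2) in LPC-Contra (edgeR adjusted p = 0.0224), and the LNIO-Contra difference was -1.14 ± 0.21 (adjusted p = 0.797). The call was lost without Sham-Ipsil1, Sham-Ipsil2, LPC-Contra1, LPC-Contra2, LPC-Ipsil2, LNIO-Ipsil3 or LNIO-Contra2. For some of the endothelial genes named above, the LPC-Contra minus sham differences were 0.72 at Slc2a1, 0.86 at Abcb1a, 0.91 at Cldn5, 0.57 at Kdr and 0.76 at Flt1. The values at the others are not given here. The LNIO-Contra minus sham differences were 0.16, -0.16, 0.14, -0.59 and -0.32 at the same genes. None of these was called by edgeR; DESeq2's Wald test called Slc2a1 in LPC-Contra against sham.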

How the data were processed

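The 15 libraries (5 groups of 3) were grouped by their labels. The authors deposited raw counts per gene and FPKM values. Per the labels' protocols RNA was extracted with TRIzol, depleted of ribosomal RNA, purified for poly(A) and sequenced as paired ends, and per the submitters' processing notes HISAT2 2.2.1, R 4.4.2 and GRCm39 were used. The sources used here do not name the counting program, strand setting or annotation. Total counts per library ran from 14896445 to 20916606.

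Counts of genes that passed filterByExpr (minimum count 10, minimum total 15) were fitted in edgeR 4.0.16 (R 4.3.3) with TMM scaling, 1 mean per group over all 15 libraries and robust quasi-likelihood tests, and p-values were adjusted by the Benjamini-Hochberg method over 16795 genes. CPM are scaled by TMM, and SE is the log2 difference divided by the root of F. The script was tested on simulated data. Alternatives were DESeq2 1.42.0 (size factors and Wald test), limma 3.58.1 (voom with quality weights, and log2(FPKM + 1) or log2(FPKM + 0.1)), other filters, fewer libraries, a replicate block and leaving out each library. Same-numbered contralateral libraries of the models did not deviate together (r = -0.114, -0.269 and -0.316), so the numbers do not pair them.

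Genes named are the 10 with the smallest p where under 10 were called, up to 4 with the smallest p from each of 41 lists, and 22 fixed markers, of which 1 is not reported here, and others are said to be chosen after their values were seen. The members, lists and rule were chosen with earlier results of these data known. Replicate libraries of each group differed by more than sampling noise. Sequences and gene neighbours come from GENCODE M21 and RefSeq on GRCm38, which is not the build of the files, so no coordinates are given.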

Additional observations from a re-analysis of the deposited data

How the results depend on the processing

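No gene was called between the contralateral groups with edgeR, and this count of 0 held under DESeq2 size factors, a filter of at least 1 CPM in 3 libraries and a fit of only the groups compared. It was 1 (higher) with no low-count filter, with voom with quality weights, with limma on log2(FPKM + 1) and on log2(FPKM + 0.1), Gm8885 each time. DESeq2's Wald test called 8 (4 higher, 4 lower): Gm8885, Pltp, Arid3b, Gm3095, Dynlt1b, Prag1, Eng and Dynlt1c. A replicate block, for numbers that the labels do not state as pairs, called 1 higher gene, Alb. Leaving out 1 library gave 0 to 2, with 0 to 1 in each direction; the 2 came without LPC-Contra2. Leaving out LPC-Contra2 and LNIO-Contra1 together, chosen after seeing the data, gave 0.

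For LNIO-Contra against sham (0), 1 higher gene was called with no low-count filter, voom with quality weights, both FPKM settings and the replicate block, 3 (1 higher, 2 lower) with only the groups compared, 2 (1 higher, 1 lower) with the DESeq2 Wald test, and 0 to 1 when leaving out 1 library. For LPC-Contra against sham (1 lower), the count was 0 with only the groups compared, with the replicate block and with both of those libraries left out, 30 (8 higher, 22 lower) with the DESeq2 Wald test, and 0 to 2 when leaving out 1 library. For the injected sides (0), the count was 1 higher with no low-count filter, with log2(FPKM + 1) and with both libraries left out, 2 higher with log2(FPKM + 0.1), 15 (9 higher, 6 lower) with the DESeq2 Wald test and 580 (260 higher, 320 lower) with voom with quality weights. Leaving out 1 library gave 0 to 266 (0 to 34 higher, 0 to 232 lower). The causes were not tested.

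Of 5097 values of named genes under the alternatives, 15 passed the threshold and 38 turned sign and moved by more than their main SE. The other 5044 stayed uncalled, and they either kept their sign, at whatever size, or turned it within that SE. No named gene was called in the main fit, so none could lose a call. In all, 129 values, over 48 genes, changed sign, none of them called under its alternative. Of 1025 list medians 34 moved by more than their spread. With 3 libraries a group and a median standard error of 0.198, differences could go uncalled at many genes, under 2-fold and beyond it. Of the 340 genes with an estimate beyond 2-fold, 0 were called.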

Other observations

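Transcripts of liver were present in LNIO-Contra1. Alb, serum albumin, had 1311 counts (75.4 CPM) there and 0 in all 3 LPC-Contra libraries, all 3 sham libraries and the other 2 LNIO-Contra libraries. All 21 liver-specific genes examined, chosen after values were seen, had 3 or more counts in LNIO-Contra1, and the same held in LNIO-Ipsil1, the injected side with the same number, where Alb had 1582 counts (88.0 CPM). They included the fibrinogen gene Fgb (8.34 and 9.35 CPM), the drug-metabolising enzyme gene Cyp2e1 (9.66 and 11.6 CPM), the lipoprotein gene Apoa1 (6.96 and 7.12 CPM) and the major urinary protein gene Mup20 (9.49 and 9.85 CPM), each pair in the order LNIO-Contra1 and LNIO-Ipsil1. Summed over the 21 genes, LNIO-Contra1 had 192 CPM, LNIO-Ipsil1 233.7 CPM and LPC-Ipsil1 14.9 CPM, and the other 12 libraries had 1.61 to 3.77 CPM. The origin of these transcripts was not tested.

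Under a rule set after values were seen, at least 10 counts in all 3 libraries of one contralateral group and at most 3 in all 3 of the other, 1 gene was present in LNIO-Contra only (Gm8885) and 1 in LPC-Contra only (Padi4). Padi4, a peptidylarginine deiminase of neutrophils, had 68, 15 and 48 counts in LPC-Contra and 0, 3 and 0 in LNIO-Contra. It also varied within groups: the sham libraries had 0, 39 and 0 counts, the LPC injection site 88, 11 and 0, and the L-NIO site 1, 0 and 2.

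Cwc22, a splicing factor with several retrotransposed copies in the mouse, stood at 570, 265 and 21.8 CPM in LPC-Contra and at 28.2, 192 and 636 CPM in LNIO-Contra. The sham libraries stood at 27.2, 741 and 260 CPM, so each group held 1 low library. Of the copies, chosen after values were seen, Cwc22rt5 stood at 52.4, 32 and 0.13 CPM in LPC-Contra and at 0, 15.4 and 61.9 CPM in LNIO-Contra, with the low libraries the same.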
